A study of Mus musculus with 12 samples.

Results

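Late fetal mouse kidney was compared between embryonic day 18 (E18) and embryonic day 16 (E16) on 4 arrays, 2 at each stage, out of 12 in the series. The arrays were chosen by their titles. Each array was a membrane of spotted oligonucleotides for Notch signalling and related pathways, hybridised with amplified, biotin-labelled RNA and read by chemiluminescence. The membrane carried 128 spots, and 118 genes were measured on 120 of them. The E16 and E18 groups were labelled as embryo kidney, with no genotype, strain, allele, agent or sex named, and neither group received a labelled treatment. Replicate arrays were labelled technical, so every p-value below measures the spread between arrays and not between embryos. The number of embryos behind each RNA sample was not settled by the labels. None of the 12 kidney genes listed as markers, such as Pax2, Six2 and Umod, was on the array (0 of 12), so the tissue label could not be checked against them.

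Notch signalling passes between touching cells. A Jagged or Delta-like ligand on one cell binds a Notch receptor on its neighbour, ADAM proteases and gamma-secretase cut the receptor, and the freed intracellular part joins Rbpj and Mastermind-like proteins in the nucleus to switch on Hes and Hey repressors. In the kidney the pathway is known for patterning the proximal parts of the nephron. At E16 and E18 the mouse kidney is still forming nephrons at its outer rim while older nephrons mature inside.

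Background differed more between the arrays of a stage than between the stages. The 6 negative-control spots (plasmid DNA, blanks and artificial sequences) averaged 2324 on E16 replicate 1 and 908 on E16 replicate 2, and 3495 on E18 replicate 1 and 979 on E18 replicate 2. The median gene signal was 2.77 times this background on both replicate 1 arrays, 7.33 times on E16 replicate 2 and 8.47 times on E18 replicate 2. A gene was counted as above background where its signal exceeded the mean of these spots plus 2 SD, which held for 99 to 103 genes per array. Of the 118 genes, 91 were above background on all 4 arrays and 6 on none. The test covered 106 genes, those that exceeded this threshold on all arrays of 1 or more of the 5 stages in the series. In bulk kidney RNA, fewer cells of a type and less RNA per cell cannot be told apart.

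**Figure D1:**
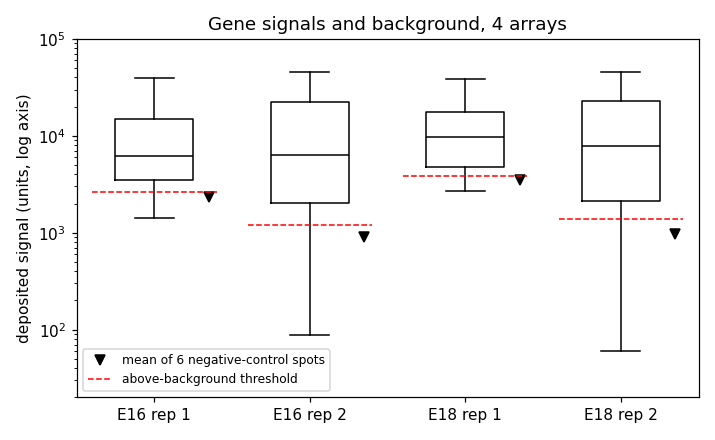
Deposited signals of the 118 genes (log axis) on the 2 E16 and 2 E18 arrays; boxes show the quartiles with the median, whiskers the lowest and highest gene, triangles the mean of the 6 negative-control spots and dashed lines the threshold for a gene above background. The replicate 1 arrays sit on a higher background (2324 and 3495) than the replicate 2 arrays (908 and 979).

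No gene passed the threshold from E16 to E18. Of 106 genes tested, 0 had a limma adjusted p under 0.05 (0% called), and 4, or 3.77%, had an unadjusted p under 0.05. These were Fos, Ccne1, Heyl and Krt1, each with adjusted p = 1. Both E18 arrays lay above both E16 arrays for 14 genes (13.2% of those tested) and below both for 9 (8.49%). The 14 include Jag2, which entered the test only through its E18 arrays. For a single gene, an exact permutation test of 2 arrays against 2 cannot go below p = 0.333 (2-sided).

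Single arrays of different stages differed about as much as single arrays of 1 stage. Over the 106 genes the E18 minus E16 difference had a median size of 0.40 log2 units between the replicate 1 arrays and 0.22 between the replicate 2 arrays, while the arrays of E16 differed from each other by 0.35 and those of E18 by 0.25. The difference of the stage means, which averages 2 arrays a side, had a median size of 0.14. The stage differences exceeded 1 log2 unit in 3 genes, Runx1, Jag2 and Fos, of which Jag2 entered the test only through its E18 arrays. The 95% interval of the difference lay inside 1 log2 unit in either direction for 56 genes, which for these leaves a change of 2-fold or more outside the interval. That count rests on the scaling, since it was 2 with array medians and 8 with no normalization. With quantile normalization it held for 33 of the 35 brightest genes, where the median interval reached 0.37 log2 units (1.29-fold) to either side. It held for 17 of the 35 genes of middle signal and for 6 of the 36 dimmest, where the median interval reached 1.21 log2 units (2.31-fold). Across the 106 genes, Pearson's r between the E16 arrays was 0.940 and between the E18 arrays 0.965, and between arrays of different stages it ran from 0.933 to 0.974. Genes are not independent replicates, so these are descriptions.

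The high-background replicate 1 pair and the low-background replicate 2 pair gave different pictures. Across the 106 genes their differences had r = -0.18, a description of points that share their arrays. They had the same sign in 31 genes, 16 higher and 15 lower at E18. Genes with a difference of exactly 0 in either pair, such as Dll3, Hey2 and Ncstn, were not counted. The genes outside the 31 were therefore not all of opposite sign. Crossed pairs, each of a high-background and a low-background array, also gave differences without agreement, with r = -0.02.

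**Figure D2:**
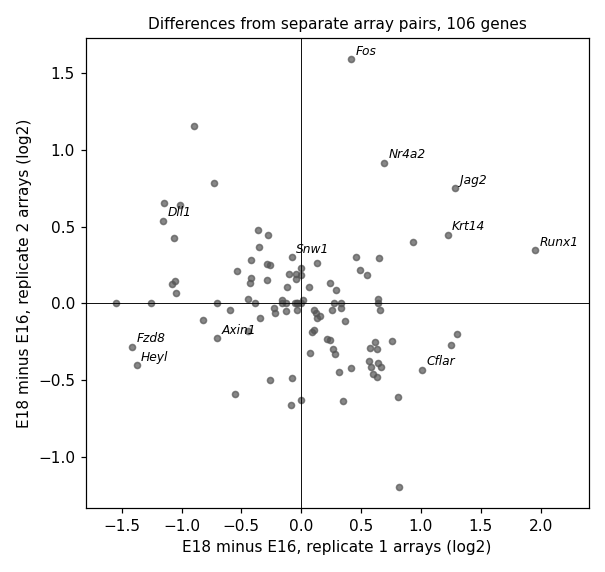
E18 minus E16 difference in normalized log2 signal from the replicate 1 arrays (horizontal) and from the replicate 2 arrays (vertical), 1 point per gene for 106 genes. Points in the upper right and lower left quadrants, among them Jag2, Nr4a2, Krt14, Fos, Heyl and Fzd8, are the 31 genes with the same sign in both pairs.

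Fos and Nr4a2 are immediate early genes, a class transcribed within minutes of a stimulus. Fos, a subunit of the AP-1 transcription factor, read 13.30 and 12.20 (normalized log2 signal) on E16 replicates 1 and 2, and 13.72 and 13.78 on E18 replicates 1 and 2. The E18 arrays were close together and both above the E16 arrays, which were far apart. The difference was 1.00 (SE 0.36, 95% interval 0.18 to 1.83, limma adjusted p = 1). It was 0.43 without E16 replicate 2 and 1.59 without E16 replicate 1. Nr4a2, an orphan nuclear receptor, read 9.76 and 10.04 at E16 and 10.46 and 10.96 at E18, with a difference of 0.80 (SE 0.50). It was above background on 1 of 2 E16 arrays and on both E18 arrays. Both genes kept their E18 arrays above their E16 arrays under all 7 other scalings, some of which keep the quantile step and could hardly change this. The list's other tested member, Fosl1, an AP-1 partner of the Jun proteins, differed by -0.32 (SE 0.56). For Fosl1 the difference was -1.06 between the replicate 1 arrays and 0.43 between the replicate 2 arrays. Whether the 3 genes shared a direction was therefore not settled.

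The proximal promoters of Fos and Nr4a2 are shown because these were the immediate early genes whose arrays did not overlap, and because the class is known to respond to cAMP through the response element with the core TGACG. The 250 bases before the transcription start are from RefSeq (GRCm38.p6), at chr12:85473640-85473889 on the plus strand for Fos and chr2:57124004-57124253 on the minus strand for Nr4a2. Capitals mark TGACG on either strand (CGTCA where read in reverse) and, in Fos, TATAAA.
Fos: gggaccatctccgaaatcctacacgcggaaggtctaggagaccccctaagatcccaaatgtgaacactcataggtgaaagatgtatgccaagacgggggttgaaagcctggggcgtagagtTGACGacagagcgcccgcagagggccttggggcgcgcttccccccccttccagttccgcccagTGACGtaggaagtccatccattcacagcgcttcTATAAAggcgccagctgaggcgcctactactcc
Nr4a2: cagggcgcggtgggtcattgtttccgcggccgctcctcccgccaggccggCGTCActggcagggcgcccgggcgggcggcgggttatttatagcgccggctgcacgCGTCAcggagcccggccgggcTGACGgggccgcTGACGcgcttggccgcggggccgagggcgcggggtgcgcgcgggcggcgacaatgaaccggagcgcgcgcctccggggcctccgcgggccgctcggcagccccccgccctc
Fos held 2 matches to TGACG, with first bases at -129 and -66 from the start, and TATAAA at -33. Nr4a2 held 4 matches, at -200, -144, -123 and -111. Among 32851 RefSeq promoter windows of this length, 3.9% held at least 2 matches, 0.137% at least 4, and 7.59% held TATAAA as read. A match is a run of letters and not a measured binding site.

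**Figure D3:**
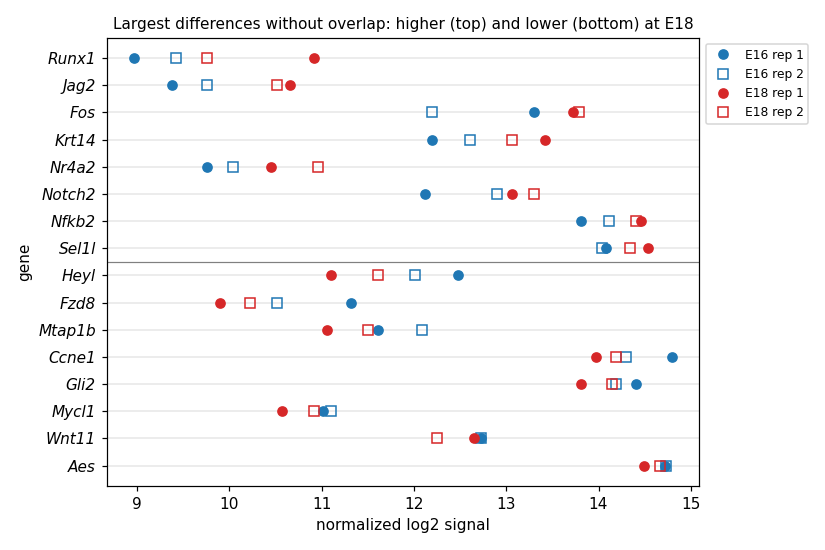
Normalized log2 signal on the 4 arrays for the 8 genes with the largest positive and the 8 with the largest negative stage difference among those whose arrays did not overlap. Blue marks E16 and red E18, circles replicate 1 and squares replicate 2; for Ccne1 the gap between the stages is narrower than the gap between the E16 arrays.

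The other 3 genes with an unadjusted p under 0.05 differed by less than 1 log2 unit. Ccne1, the cyclin E1 of the G1 to S transition, read 14.80 and 14.30 at E16 and 13.98 and 14.19 at E18. The E18 arrays were below the E16 arrays by a narrow margin, and the difference was -0.47 (SE 0.20). Heyl, a Hes-related repressor, read 12.47 and 12.02 at E16 and 11.10 and 11.61 at E18, a difference of -0.89 (SE 0.38). Krt1, a keratin of differentiating epidermis, read 10.96 and 11.32 at E16 and 11.45 and 11.53 at E18, a difference of 0.35 (SE 0.15). The limma adjusted p was 1 for all 3. With both high-background arrays left out, the difference was 1.69 for Fos, -0.12 for Ccne1, -0.40 for Heyl and 0.20 for Krt1, with 1 array on each side.

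Over the 12 arrays of the series, Fos had stage means of 12.48, 11.87 and 11.90 at E12, E13 and E14, then 12.75 at E16 and 13.75 at E18. Ccne1 had means of 14.82, 14.72 and 14.72 at the first 3 stages, 14.55 at E16 and 14.09 at E18. Both E18 arrays lay above every earlier array for Fos and below every earlier array for Ccne1. Heyl stood at 11.35, 11.71 and 11.35 before 12.24 at E16 and 11.35 at E18, and E16 replicate 1 was its highest array, while E16 replicate 2 lay below 1 array of E13. Krt1 stood at 12.18, 11.98 and 12.01 before 11.14 at E16 and 11.49 at E18, and its E16 arrays were the lowest of the 12. The median size of the stage step over all tested genes was 0.22 log2 units from E12 to E13, 0.18 from E13 to E14, 0.28 from E14 to E16 and 0.14 from E16 to E18. The last steps share the E16 arrays, and whether the steps differ was not tested. The steps also differ in their numbers of arrays and of days. From E16 to E18 the median size was 0.34 with array medians and 0.30 without E16 replicate 2.

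**Figure D4:**
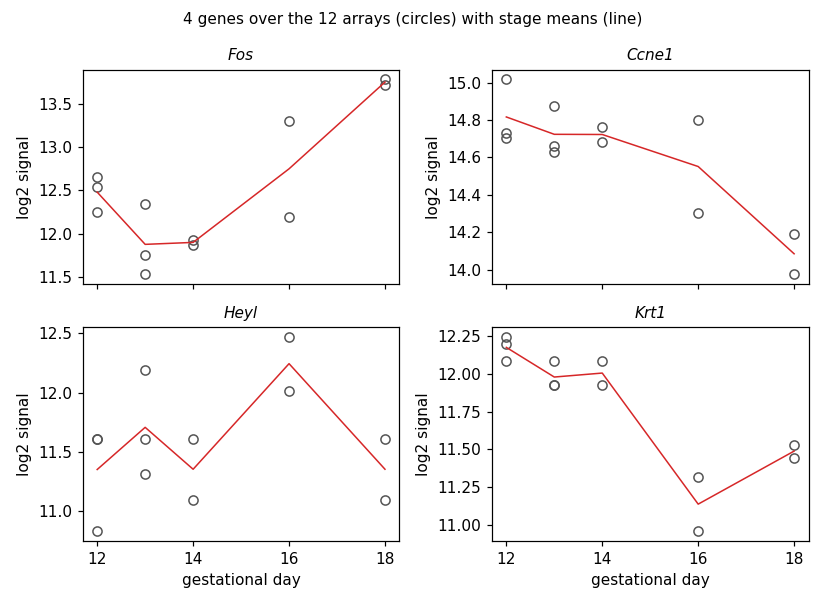
Normalized log2 signal of Fos, Ccne1, Heyl and Krt1 on the 12 arrays (circles) against gestational day, with the stage means joined by a line; each panel has its own vertical axis. At E18 both arrays are above every earlier array for Fos and below every earlier array for Ccne1.

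Among the 5 Notch ligands, 0 passed the test and the median difference was -0.09 log2 units, beside 0 over all 106 genes. Jag2 was not above background on either E16 array (9.38 and 9.76) and was above it on both E18 arrays (10.66 and 10.51). It was the only gene with 0 of 2 arrays above background at E16 and 2 of 2 at E18. At earlier stages it was above background on 1 of 3 E12, 2 of 3 E13 and 1 of 2 E14 arrays. Jag2 thus entered the test only through E18, the stage where it was high, so its difference is a description. On E16 replicate 2 its signal of 1169 lay just under the threshold of 1205. With the main scaling its level at E18 was 1.56-fold higher by a cautious estimate (difference as fitted 1.02, 95% interval -0.23 to 2.26, limma adjusted p = 1). An estimate of this kind sets the brighter stage against, on each dim array, the higher of the gene's own signal and the lowest signal among genes above background. It leaves out the spread between arrays and is no lower limit. Over the other scalings the difference ran from 0.60 to 1.83. Jag1, the other Jagged ligand, read 14.43 on both E16 arrays and 14.30 and 14.38 at E18, a narrow step down without overlap, with a difference of -0.09 and a 95% interval of -0.52 to 0.33. Its arrays overlapped with housekeeping scaling, no normalization and the deposited ratios. Dll3 read 13.89 and 12.82 at E16 and 12.35 and 12.82 at E18 (difference -0.77, SE 0.45). Dll1 read 12.90 and 10.86 at E16 and 11.75 and 11.40 at E18, where the E16 arrays lay more than the whole stage difference apart (difference -0.31, SE 0.68). Dll4, a ligand of endothelium, differed by 0.01 (SE 0.53). The signs of Jag2 and Dll3 were the same under all 7 other scalings, and those of Jag1, Dll1 and Dll4 changed under at least 1.

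Of the 4 receptors, 0 passed the test, with a median difference of -0.01. Notch2, the receptor known for proximal nephron fate, read 12.13 and 12.90 at E16 and 13.06 and 13.30 at E18. Its arrays did not overlap, and the difference was 0.67 (SE 0.42, 95% interval -0.28 to 1.62). Under array medians, housekeeping scaling and no normalization the arrays of Notch2 overlapped, and its difference ran from 0.29 to 0.73 over the scalings. Notch1 differed by 0.16 (SE 0.31), Notch3, a receptor of vascular smooth muscle, by -0.37 (SE 0.38) and Notch4, an endothelial receptor, by -0.19 (SE 0.46). Notch3 read 12.82 and 13.89 at E16, and Notch4 read 12.90 and 11.87 at E18, so in both genes arrays of 1 stage lay further apart than the stages. The signs of Notch1 and Notch4 changed under 1 of the other scalings each.

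**Figure D5:**
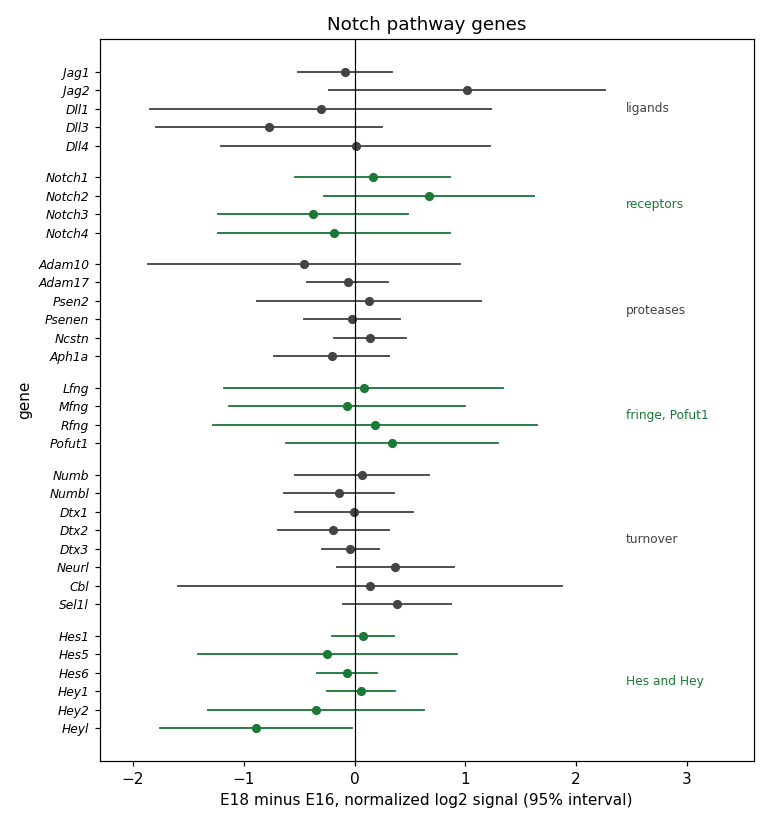
E18 minus E16 difference (points) with its 95% limma interval (lines), in normalized log2 signal, for tested Notch ligands, receptors, 6 of the 7 tested proteases, fringe and O-fucose enzymes, turnover genes and Hes and Hey repressors. With the main scaling all intervals except that of Heyl include 0. They are narrow for Hes1, Hes6, Hey1, Adam17 and Dtx3 and wide for Dll1, Adam10 and Cbl.

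The proteases that cut the receptor had 0 of 7 tested members past the test, 0 of 7 with arrays that did not overlap (beside 13.2% higher and 8.49% lower over all genes), and a median difference of -0.03. Ncstn, the gamma-secretase subunit that docks substrates, read 14.68 and 14.96 at E16 and 14.96 on both E18 arrays, a difference of 0.14 with a 95% interval of -0.19 to 0.46. Aph1a, a scaffold subunit, differed by -0.21 (95% interval -0.73 to 0.31) and the sheddase Adam17 by -0.06 (95% interval -0.43 to 0.30). With array medians Adam17 differed by -0.44, just below that interval. The sheddase Adam10 was less well measured, at -0.45 (95% interval -1.86 to 0.95). The sign of Ncstn changed under 1 of the other scalings. With the main scaling the interval lay inside 1 log2 unit for 5 of the 7.

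The 4 enzymes that add fucose to Notch or extend it had 0 past the test and a median difference of 0.13. Pofut1, the O-fucosyltransferase, read 13.60 and 14.01 at E16 and 14.24 and 14.04 at E18 (difference 0.34, SE 0.42), with both E18 arrays above both E16 arrays by a narrow margin. Its arrays overlapped with array medians, housekeeping scaling, no normalization and the deposited ratios. The fringe enzymes Rfng, Lfng and Mfng differed by 0.18 (SE 0.64), 0.08 (SE 0.55) and -0.07 (SE 0.47), and each of the 4 genes changed sign under 1 of the other scalings. None of the 4 intervals lay inside 1 log2 unit.

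Of the 8 Numb, Deltex and turnover genes, 0 passed the test and 2 of the 8 had E18 arrays above their E16 arrays, beside 13.2% over all genes. Sel1l, an adaptor of endoplasmic reticulum degradation, read 14.08 and 14.04 at E16 and 14.54 and 14.34 at E18 (difference 0.38, SE 0.21). Neurl, related to a fly ubiquitin ligase that promotes ligand endocytosis, read 11.93 and 12.29 at E16 and 12.47 on both E18 arrays (difference 0.37, SE 0.23). Neurl kept its E18 arrays above its E16 arrays under all 7 other scalings, and Sel1l lost this with array medians and with no normalization. Dtx2, a Deltex ubiquitin ligase, differed by -0.19 (SE 0.22) and Numbl, a Numb-related adaptor, by -0.14 (SE 0.22), with a sign that changed under 3 of the other scalings. With the main scaling the interval lay inside 1 log2 unit for 7 of the 8.

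Of the 6 Hes and Hey repressors, 0 passed the test, and the median difference was -0.16. Heyl had the lowest p of the list, and its arrays overlapped with housekeeping scaling, no normalization and the deposited ratios, with differences from -1.07 to -0.47 over the scalings. With the main scaling the brightest repressors had narrow intervals around 0. Hes1, a repressor of broad use in progenitors, read 14.92 and 14.68 at E16 and 14.88 on both E18 arrays, a difference of 0.08 (95% interval -0.21 to 0.36). Hey1 differed by 0.06 (95% interval -0.25 to 0.36) and Hes6, which can oppose Hes1, by -0.07 (95% interval -0.34 to 0.20). With array medians Hes1, Hey1 and Hes6 differed by -0.32, -0.33 and -0.39, each below the lower end of its interval above. The narrow intervals thus do not cover the choice of scaling. Hey2 read 12.39 and 12.13 at E16 and 11.69 and 12.13 at E18 (difference -0.35, SE 0.43), and Hes5 differed by -0.25 (SE 0.51). Apart from Heyl, each of these genes changed sign under at least 1 of the other scalings.

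In the nucleus, Rbpj, the DNA-binding partner of Notch, read 13.72 and 14.34 at E16 and 14.04 and 13.89 at E18, a difference of -0.07 (95% interval -0.66 to 0.53). Its co-activators Maml1 and Ep300 differed by 0.15 (SE 0.13) and -0.22 (SE 0.61) and the elongation factor Supt6h by 0.04 (SE 0.27). The list of Rbpj and co-activators had 0 of 5 tested members past the test and a median of 0.04, and Pcaf was not tested because it was near background. The co-repressors also had 0 of 6 past the test and a median of 0.01. Aes, a short Groucho-family member, was below both E16 arrays on both E18 arrays (14.72 and 14.73 against 14.50 and 14.66), a difference of -0.14 (SE 0.13). Its arrays overlapped with housekeeping scaling, no normalization and the deposited ratios. Tle1, a full-length Groucho protein, differed by -0.31 (SE 0.43) and Nrarp, a feedback inhibitor of Notch, by 0.12 (SE 0.27). The signs of Rbpj, Maml1, Ep300, Supt6h and Nrarp each changed under at least 1 of the other scalings.

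Of the Hedgehog pathway, 0 of 7 tested genes passed and 1 of 7 had E18 arrays below its E16 arrays, near the 8.49% over all genes. Gli2, a transcription factor of the pathway, read 14.41 and 14.19 at E16 and 13.82 and 14.15 at E18 (difference -0.32, SE 0.19), and its arrays overlapped with housekeeping scaling, no normalization and the deposited ratios. Gli1, Gli3 and Stil, a centriole protein, differed by -0.17, -0.13 and -0.05 (SE 0.24, 0.20 and 0.27), and the sign of each changed under 3 other scalings. The ligand Shh and the receptor Ptch1 were not above background on any of the 4 arrays.

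Of the Wnt receptors, 0 of 8 tested Frizzled genes passed, with a median of -0.03. Fzd8 read 11.32 and 10.51 at E16 and 9.90 and 10.23 at E18 (difference -0.85, SE 0.47). It was the only gene below both E16 arrays on both E18 arrays under all 7 other scalings. Fzd3, Fzd1 and Fzd2 differed by -0.48 (SE 0.59), -0.19 (SE 0.50) and 0.09 (SE 0.33), and the signs of Fzd1 and Fzd2 changed under at least 1 of the other scalings. Among 6 other Wnt genes, 0 passed. Lrp5, a co-receptor, differed by 0.55 (SE 0.41), Wnt11, a ligand of the ureteric tip, by -0.28 (SE 0.38), Axin1, a scaffold of the destruction complex, by -0.47 (SE 0.74) and Ctnnb1, beta-catenin, by -0.08 (95% interval -0.43 to 0.28). With array medians Ctnnb1 differed by -0.46, just below that interval. Wnt11 read 12.73 on both E16 arrays and 12.65 and 12.25 at E18, without overlap. This was lost with housekeeping scaling, no normalization and the deposited ratios. Outside the lists, Mtap1b, a microtubule protein of neurons, read 11.61 and 12.08 at E16 and 11.06 and 11.50 at E18 (difference -0.57, SE 0.46). The separation of its arrays was lost with no normalization.

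Among 6 tested cell cycle and survival genes, 0 passed and both Ccne1 and Mycl1 had E18 arrays below their E16 arrays, beside 8.49% over all genes. Mycl1, a Myc-family factor, read 11.02 and 11.10 at E16 and 10.57 and 10.91 at E18 (difference -0.31, SE 0.24). Ccne1 and Mycl1 lost this separation with no normalization. Cflar, an inhibitor of caspase-8, differed by 0.29 (SE 0.79), with E16 arrays at 9.80 and 11.75. Of 8 tested NF-kB and cytokine genes, 0 passed, and both NF-kB precursor genes were higher on both E18 arrays, 2 of 8 beside 13.2% over all genes. Nfkb2 read 13.82 and 14.12 at E16 and 14.46 and 14.41 at E18 (difference 0.47, SE 0.21, 95% interval -0.01 to 0.95). Nfkb1 read 14.46 and 14.50 at E16 and 14.70 and 14.63 at E18 (difference 0.19, SE 0.13). The arrays of both genes overlapped with array medians and with no normalization, and those of Nfkb1 also with housekeeping scaling. The difference of Nfkb1 ran from -0.15 to 0.27 over the scalings. The cytokine genes Ifng and Il17b were near background, with 0 of 2 arrays above it at E16 for Ifng and at E18 for Il17b.

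Markers of other cell types were read as lists. Of 6 keratinocyte markers, 0 passed and Krt14, a basal keratin, and Krt1 had E18 arrays above their E16 arrays, here and under all 7 other scalings. These 2 of 6 stand beside 13.2% over all genes. Krt14 read 12.20 and 12.61 at E16 and 13.42 and 13.06 at E18 (difference 0.83, SE 0.41). The summed normalized signal of the 6 genes was 22619 and 28781 at E16 and 32747 and 31797 at E18. A sum weighs bright genes most, Krt14 among them, and does not speak for each member. Ivl, an envelope protein, cleared the background threshold on 2 of 2 arrays at E16 and 0 of 2 at E18. It read 10.81 and 9.90 at E16 and 9.76 and 9.97 at E18, so the arrays overlapped, and the difference was -0.49 (95% interval -1.35 to 0.37, limma adjusted p = 1). Without E16 replicate 1 the difference was -0.04, and between the replicate 2 arrays E18 was the higher. Krt5 differed by 0.49 (SE 0.53). The part of such cells in the values of other genes was not tested.

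Of 5 tested blood-cell markers, 0 passed, and their summed signal was 31829.5 and 33354.5 at E16 and 34778 and 34162 at E18. Most of each sum came from a bright member other than Runx1, Ptcra, Pax5 and Ifng, so the sums say little about these genes. Runx1, a factor of blood stem cells, was not above background on either E16 array (8.96 and 9.42) and was above it on 1 of 2 E18 arrays (10.91 and 9.76). The difference was 1.15 (SE 0.69, 95% interval -0.42 to 2.71, limma adjusted p = 1). With both high-background arrays left out the difference was 0.30, and between the replicate 1 arrays alone it was 1.95. Il2ra and Sh2d1a, lymphocyte genes, did not enter the test. Ptcra, Pax5 and Ifng differed by 0.19 (SE 0.42), 0.13 (SE 0.90) and 0.32 (SE 0.24), and the sign of Pax5 changed under 1 of the other scalings. The 4 endothelial markers, which include Dll4, Notch4 and Heyl, had a summed signal of 38838 and 33710 at E16 and 33298 and 32156 at E18, and 0 passed. Most of each sum came from the remaining member, so the sums say little about Dll4, Notch4 and Heyl.

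The 5 housekeeping genes differed by -0.03 (Gapdh) to 0.08 (B2m) log2 units, and each interval lay inside 1 log2 unit, with a sign that changed under at least 1 of the other scalings for all but Gapdh. These are among the brightest spots, and quantile normalization leaves such spots little room. The scaling set how the other directions fell. Against the 14 higher and 9 lower genes whose arrays did not overlap, array medians gave 8 higher and 42 lower, housekeeping scaling 18 and 5, no normalization 14 and 1, and the deposited ratios 25 and 4. Array medians moved the median of all genes by -0.29 log2 units and no normalization by 0.13. Of the 23 genes, 8 held their direction without overlap under all 7 other scalings. These were Fos, Jag2, Krt1, Krt14, Neurl, Nr4a2 and Runx1, higher at E18, and Fzd8, lower at E18. Jag2 entered the test only through its E18 arrays, so its place among the higher genes is no support. Quantile normalization over the 4 arrays, no background correction and background from negative controls all keep the quantile step. Each kept all 23 genes without overlap and could hardly do otherwise. The settings able to change these calls were array medians, housekeeping scaling, no normalization and the deposited ratios.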

How the data were processed

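RNA was extracted with TRIzol, then amplified and labelled with biotin, per the labels' protocols. The deposited file of each array gave 1 intensity per spot, with no background column; the sources used here do not name the image software. Since the negative controls lay well above 0, no earlier background subtraction was assumed. The deposited table of ratios, from its values, held the signal above the lowest spot over that of Ppia; it served as an alternative, as log2 of the ratio plus 0.01.

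Intensities of all 12 arrays were background-corrected by normexp (offset 50), put on the log2 scale and quantile-normalized over the 120 gene spots. Spots of a gene were averaged. Quantile values repeat where ranks repeat: 4 genes had the same value on both E16 arrays and 9 on both E18 arrays. No spot had the same signal on both arrays of a stage. The test was limma 3.58.1 (R 4.3.3), 1 mean per stage over 12 arrays, contrast E18 minus E16, 2-sided, Benjamini-Hochberg over 106 genes, with 7 residual and 1.72 prior degrees of freedom; it was tested on simulated data. The number of arrays limits the precision.

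Genes were named by rule: unadjusted p under 0.05; up to 8 largest differences each way without overlap; genes above background on both arrays of 1 stage and neither of the other; all tested ligands, receptors, fringe and O-fucose enzymes, Hes, Hey and housekeeping genes; and up to 4 of lowest p per other list. Lists and comparison were chosen with earlier results of these data known. Some items are not reported here. Symbols are the array's; 115 of 118 accessions matched RefSeq (GRCm38.p6). Aes, Mtap1b, Mycl1, Neurl, Pcaf and Supt6h are now Tle5, Map1b, Mycl, Neurl1a, Kat2b and Supt6. The alternatives were 7 scalings or background corrections, other filters, fits and priors, blocks, and leaving out arrays. Replicate numbers were not taken as pairs.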

Additional observations from a re-analysis of the deposited data

How the results depend on the processing

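No gene passed the threshold under any alternative run, and the lowest adjusted p of a named gene was 0.157, for Fos. The count at an unadjusted p under 0.05 was 4, and 1 with array medians, housekeeping scaling or the deposited ratios, and 2 with background as a block over the 4 arrays. The count without overlap was 23, and 50 with array medians and 15 with no normalization. The count of intervals inside 1 log2 unit was 56, and 2 with array medians, 8 with no normalization and 33 with both high-background arrays left out. The median size of the difference was 0.14, and 0.40 between the high-background arrays. Leaving out 1 array gave 0 to 0 genes past the threshold, 0 to 5 at an unadjusted p under 0.05 (0 without E18 replicate 1, 2 without any 1 array of E12, E13 replicate 1, E16 replicate 1 or E18 replicate 2), 23 to 26 without overlap (run for arrays of other stages only), a median size of 0.13 to 0.30 (0.30 without E16 replicate 2, 0.24 without E18 replicate 2), and 38 to 59 intervals inside 1 log2 unit. The cause was not tested for any of these. With the replicate block over all arrays, 0 genes passed, 4 had an unadjusted p under 0.05 and 57 intervals lay inside 1 log2 unit. Deviations of same-numbered arrays of E16 and E18 had r = -0.15 across genes; the crossed pairing, chosen after seeing the data as was the fit without both high-background arrays, gave 0 genes past the threshold and 6 at an unadjusted p under 0.05. Of 72 named genes, 34 changed sign under at least 1 of the 7 other scalings, and 138 of 1940 values over all alternatives changed sign. The median gene signal was 2.77 to 8.47 times the background on these arrays, and the median SE was 0.53 for the dimmest genes and 0.16 for the brightest; the part of background in this was not tested.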
